A study of Mus musculus with 20 samples.

Results

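The genes of the cleavage and polyadenylation machinery were followed through 10 members named by symbol: Cpsf1, Cpsf2, Cpsf3, Cpsf4, Fip1l1, Cpsf6, Nudt21, Cstf2, Pcf11 and Papola. All 10 were among the 14924 genes with RNA-Seq and POL-Seq counts, 7 had at least 1 listed 3′ end, and 2 held a window bound by HuD. HuD (ELAVL4) is a neuronal RNA binding protein that recognises U-rich stretches of mRNA, and the study induced it in NSC-34, a hybrid line of mouse neuroblastoma and motor neuron-enriched spinal cord cells. Total RNA (RNA-Seq) and polysomal RNA (POL-Seq) were sequenced in 2 control and 2 HuD libraries each, 3′ ends in 3 and 3, and RNA crosslinked to HuD (CRAC) in 3 and 3 libraries that the authors pooled. The HuD groups were Trex-HuD NSC-34 cells, which carry the tetracycline repressor and a lentiviral, His-HA tagged human HuD beside their own Elavl4 gene. By the labels these cells received tetracycline at 2 µg/ml for 48 h in the 3′ end, RNA-Seq and POL-Seq assays, and at 10 µg/ml for 24 h for CRAC. For CRAC the results text of the study names doxycycline instead, at another dose and time. The CRAC controls were Trex cells without the HuD vector that received the same tetracycline. For the other controls the labels give neither vector nor tetracycline, so HuD, the vector and the drug cannot be told apart in those comparisons. Whether a line was 1 clone was not given in the sources used here.

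Nearly every mRNA receives its 3′ end in 1 coupled reaction. The cleavage and polyadenylation specificity factor (CPSF) reads the AAUAAA signal and cuts, the cleavage stimulation factor (CstF) reads the downstream GU-rich element, the cleavage factors CFIm and CFIIm help to place the cut, and poly(A) polymerase adds the tail. Many genes have several such sites, and ELAV family proteins are known to act on the choice between them in neurons. The comparisons asked whether the mRNAs of the machinery changed in level, polysome content or own 3′ end when HuD was induced, and which of them HuD bound.

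The targeted gene was higher in the HuD libraries of both fractions. Reads assigned to Elavl4 stood at 78.3 and 97.4 CPM, counts scaled to library size, in control total RNA and at 237 and 212 CPM with HuD, a log2 change of 1.35 ± 0.15 (SE) with an adjusted p of 0.0866 by edgeR. The transgene is human, but reads were aligned to the mouse genome and summed per gene, so these counts cannot separate its reads from those of the mouse gene. How many human reads aligned was not examined, so the change does not measure the induction. At the mouse Elavl4 ends the HuD libraries were lower, with a log2 change of -0.49 and an adjusted p of 0.922 by edgeR, or 0.0306 with a replicate block, but those sites belong to the mouse gene and check nothing about the transgene. Of 10 motor neuron markers, 8 were listed, with a summed level of 1480 to 1570 CPM in control and 1560 to 1650 CPM in HuD total RNA. Most of it was Prph, whereas Chat, the enzyme that makes acetylcholine, stood near 0.5 CPM and Mnx1 and Slc5a7 were not listed. Of 10 markers of glia, vessels and fibroblasts, 5 were listed and summed to 22.0 to 25.5 CPM. Depth ran from 21296012 counts in replicate 2 of the control polysomal libraries to 36284728 counts, and from 12986862 to 15751036 counts in the 3′ end libraries.

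Per length, poly(A) polymerase was the most abundant member and Pcf11 the least. FPKM, the level per kilobase of annotated exon, was taken from the 2 control total RNA libraries. Papola stood at 24.0 and 27.6 FPKM, followed by Cpsf1 at 21.5 and 23.9, Cpsf4 at 17.2 and 18.9, and Cstf2 at 15.6 and 18.4. Cpsf3 stood at 15.5 and 17.8 FPKM, Cpsf6 at 15.3 ± 1.88 (mean and SD, n = 2) with 16.6 as the higher library, Fip1l1 at 10.9 and 12.1, and Cpsf2 at 8.27 and 11.4. Nudt21 at 5.93 and 7.14 FPKM and Pcf11 at 5.88 and 6.45 closed the order. The means spanned 4.18-fold, with 8 members above the median protein coding gene at 6.93 FPKM. In 5 of the 9 neighbouring pairs the libraries overlapped: Cpsf4 and Cstf2, Cstf2 and Cpsf3, Cpsf3 and Cpsf6, Fip1l1 and Cpsf2, and Nudt21 and Pcf11. The length of a gene counted all exons of all its annotated transcripts, so a gene with long rare exons, such as Fip1l1 with 13122 nt, takes a lower FPKM. For Nudt21 the length of 5350 nt runs to position 94015496, while the gene model used for its counts stopped at 94017770. Its FPKM is lowered by an amount that was not computed. The place of Nudt21 in the order, its overlap with Pcf11 and its side of the median are therefore uncertain.

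**Figure D1:**
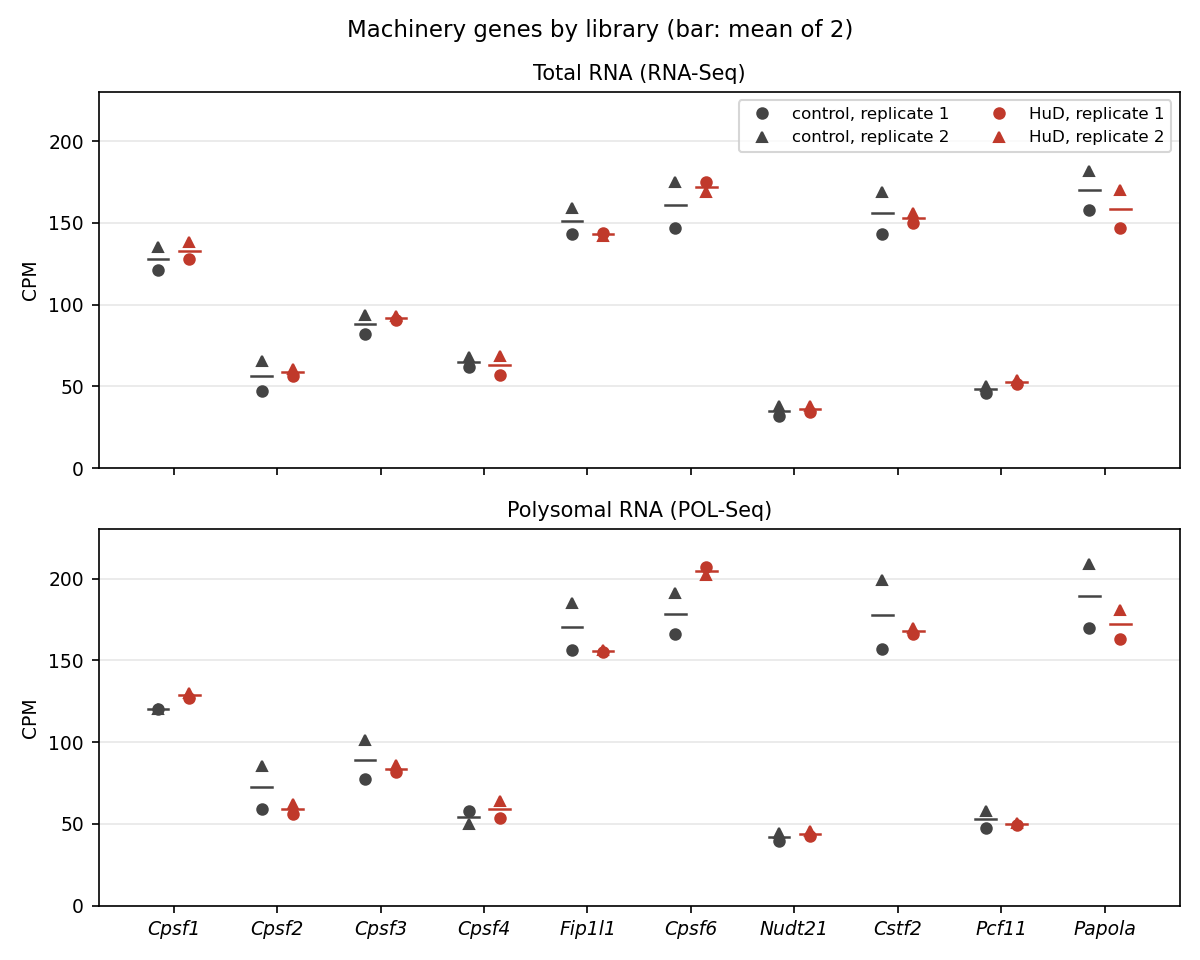
CPM of each member (y axis, linear from 0) in every library of total RNA (top) and polysomal RNA (bottom), with grey for control, red for HuD, a circle for replicate 1, a triangle for replicate 2 and a bar for the mean of 2. The 2 control libraries stand apart for most members, and the groups overlap for 8 members in polysomal RNA and for 9 in total RNA.

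In total and polysomal RNA, Cpsf1 alone of the CPSF subunits had a comparison in which HuD and control libraries did not overlap, and none passed the test. Cpsf1, the large subunit that scaffolds the complex (chromosome 15, 76595809 to 76607591, minus strand), stood at 121 and 135 CPM in control and 128 and 138 CPM in HuD total RNA. In polysomal RNA it was at 120 and 120 CPM in control and at 127 and 130 CPM with HuD, so that the groups did not overlap. Its polysomal log2 change was 0.10 ± 0.09 (SE), with a 95% interval from -0.10 to 0.29 and an adjusted p of 0.969 by edgeR.

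Cpsf3, the endonuclease that makes the cut, and Cpsf2, its catalytically inactive partner, both had higher counts in replicate 2 of the controls. Cpsf3 (chromosome 12, 21286297 to 21315056, plus strand) read 81.9 and 93.9 CPM in control and 90.4 and 93.0 CPM in HuD total RNA, and 77.6 and 101 against 81.7 and 85.9 CPM in polysomal RNA. Cpsf2 (chromosome 12, 101975974 to 102005993, plus strand) read 47.4 and 65.3 CPM in control and 56.6 and 60.7 CPM in HuD total RNA, and 59.3 and 85.4 against 55.9 and 62.4 CPM in polysomal RNA. In both fractions the HuD libraries of Cpsf2 overlapped the range of the controls. Its polysomal log2 change of -0.29 ± 0.18 (SE; 95% interval -0.70 to 0.12) was the lowest of the members, with an adjusted p of 0.969 by edgeR.

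Cpsf4, a zinc finger subunit that contacts the AAUAAA signal, and Fip1l1, which links CPSF to poly(A) polymerase, likewise overlapped between groups in both fractions, except that the HuD polysomal libraries of Fip1l1 sat at the lower edge of the controls. Cpsf4 (chromosome 5, 145167213 to 145182041, plus strand) read 61.8 and 68.1 CPM in control and 57.1 and 68.5 CPM in HuD total RNA, and 58.0 and 50.0 against 53.7 and 64.0 CPM in polysomal RNA. Fip1l1 (chromosome 5, 74535449 to 74598800, plus strand) read 143 and 159 CPM in control and 144 and 142 CPM in HuD total RNA, and 156 and 185 against 155 and 156 CPM in polysomal RNA.

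Of the CFIm pair, Cpsf6 was higher in both HuD polysomal libraries than in the controls. CFIm binds UGUA upstream of the cut, with Nudt21 reading the RNA and Cpsf6 as its larger partner. Cpsf6 (chromosome 10, 117344673 to 117380015, minus strand) read 166 and 191 CPM in control and 207 and 202 CPM in HuD polysomal RNA, and 147 and 175 against 175 and 169 CPM in total RNA. Its polysomal log2 change of 0.20 ± 0.11 (SE; 95% interval -0.04 to 0.43) was the highest of the members and did not pass the test (adjusted p = 0.969, edgeR). Nudt21 (chromosome 8, 94017770 to 94037021, minus strand) read 31.7 and 38.2 CPM in control and 34.5 and 38.2 CPM in HuD total RNA, and 39.5 and 44.7 against 42.5 and 45.5 CPM in polysomal RNA, with overlap in both.

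Cstf2, the CstF subunit that binds the downstream element (chromosome X, 134059187 to 134086819, plus strand), read 143 and 169 CPM in control and 150 and 156 CPM in HuD total RNA, and 157 and 199 against 166 and 170 CPM in polysomal RNA. In both fractions its HuD libraries fell between the controls. Cstf2t is a retroposed copy of Cstf2, and how reads shared by the 2 genes were divided was not examined. Pcf11, the CFIIm subunit that binds the polymerase tail (chromosome 7, 92643712 to 92669933, minus strand), was the only member whose total RNA groups did not overlap, with 46.0 and 50.5 CPM in control and 51.3 and 53.8 CPM with HuD. Its log2 change was 0.12 ± 0.10 (SE; 95% interval -0.11 to 0.35), with an adjusted p of 1.0 by edgeR, and in polysomal RNA it read 47.6 and 57.9 against 49.1 and 50.3 CPM.

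Papola, the poly(A) polymerase itself (chromosome 12, 105784694 to 105838944, plus strand), read 158 and 182 CPM in control and 147 and 170 CPM in HuD total RNA, and 170 and 209 against 163 and 181 CPM in polysomal RNA. In both fractions the groups overlapped, and its total RNA log2 change of -0.10 ± 0.13 (SE; 95% interval -0.39 to 0.18) was the lowest of the members.

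No member passed an adjusted p of 0.05 for the change with HuD in total RNA, where the edgeR test called 0.0% of 14906 genes, nor did any at an unadjusted p under 0.05, which 1.78% of genes passed as higher and 0.865% as lower. DESeq2 called 0 members by either measure. The log2 changes of the members ran from -0.10 to 0.12, with a median of 0.06 against -0.0039 over all genes, and all their 95% intervals lay between 0.764-fold and 1.38-fold. Pcf11 was the 1 of 10 members with groups that did not overlap, and higher without overlap were 15.1% of genes. Without replicate 1 of the control total RNA libraries the members' median was -0.09, and without replicate 2 it was 0.15. In such a fit the group holds 1 library, which is assumed to vary like the other groups. In a line of 1 kind of cell, fewer transcripts per cell and fewer cells with transcripts cannot be told apart.

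In polysomal RNA the members again held no call, in a comparison in which the edgeR test called 0.0% of genes at an adjusted p of 0.05, with 2.29% higher and 1.89% lower at an unadjusted p under 0.05. At an unadjusted p under 0.05 edgeR and DESeq2 found 0 members. The log2 changes ran from -0.29 for Cpsf2 to 0.20 for Cpsf6, with a median of -0.08 against -0.0063 over all genes, and the intervals lay between 0.616-fold and 1.35-fold. Cpsf1 and Cpsf6, 2 of 10, were higher without overlap, beside 14.1% of genes. The direction of the median rested on the control libraries. Without replicate 1 of the control polysomal libraries it was -0.23, and Cpsf2, Cpsf3, Fip1l1, Cstf2, Pcf11 and Papola then had an unadjusted p under 0.05 (lowest adjusted p = 0.0929, edgeR), in a fit that had 21.9% of all genes at that threshold and called 372. Without replicate 2 the median was 0.09 and Cpsf6 alone had an unadjusted p under 0.05 (adjusted p = 0.924, edgeR), beside 5.37% of all genes.

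**Figure D2:**
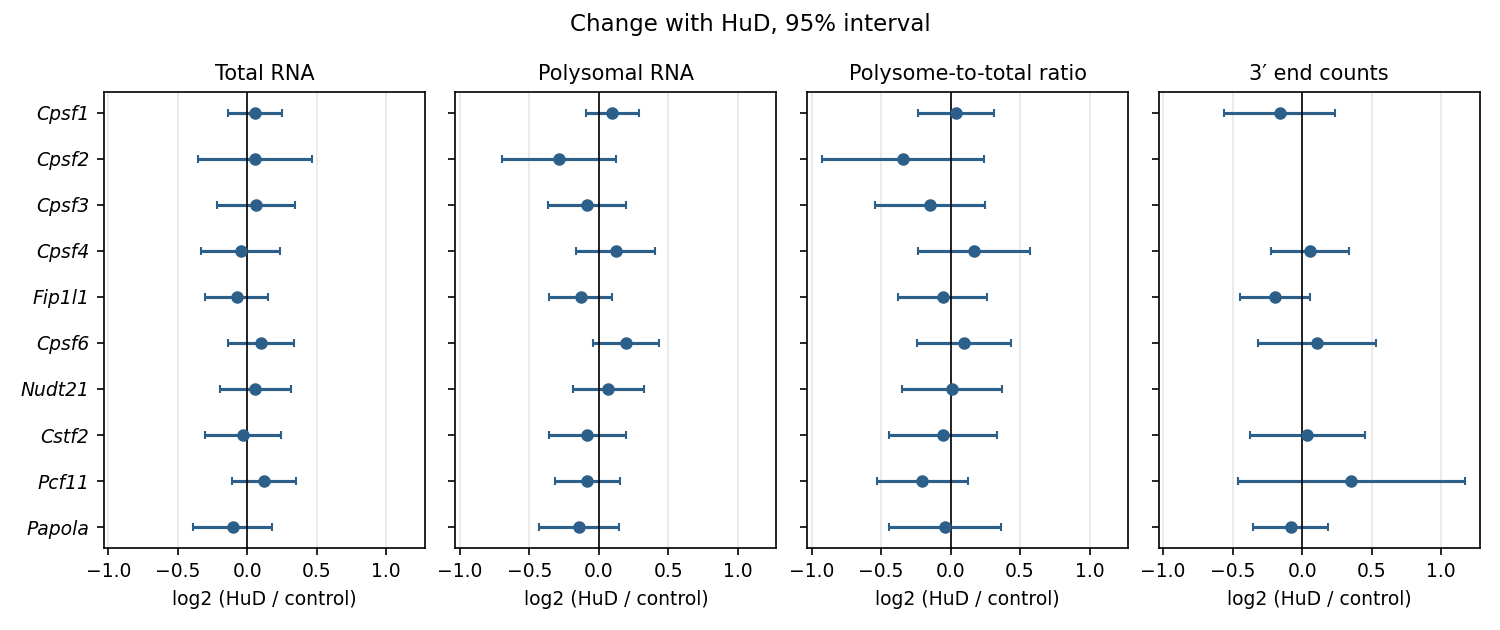
Log2 change with HuD (x axis; point) and its 95% interval (bar) from edgeR for each member in total RNA, polysomal RNA, the polysome-to-total ratio and summed 3′ end counts, with no point for the 3 members without a listed end. In these fits, which hold no replicate block, all intervals cross 0, and the widest, for the 3′ ends of Pcf11, runs from -0.46 to 1.17.

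Most members stood higher in replicate 2 than in replicate 1 of each group. In control total RNA this held for 10 of 10 members, with a median log2 difference of 0.20, while 53.1% of all genes were higher in replicate 2. In control polysomal RNA it held for 9 of 10 members, with a median of 0.27 beside 49.7% of all genes. In HuD cells the numbers were 8 of 10 in total RNA (median 0.08, beside 54.9% of all genes) and 9 of 10 in polysomal RNA (median 0.06, beside 51.6%). The median difference between the control replicates was thus larger in size than the median change with HuD in either fraction, and with the replicate number as a block in the fit the members' median change was 0.06 in total RNA and -0.08 in polysomal RNA. Over the 8 libraries the mean profile of the members was most like Atic (Pearson r 0.989), Mcl1 (0.986) and Nup153 (0.983). Among the members themselves r with that mean ran from -0.12 for Cpsf4 and 0.28 for Cpsf1 to 0.92 for Cpsf2. These libraries share replicate numbers and fractions, and 8107 of 14896 genes were at or above the lowest member, so the likeness is a description only.

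For the polysome-to-total ratio, taken as translation efficiency, no member passed the edgeR interaction test of the change with HuD, which called 0.0% of genes at an adjusted p of 0.05 and, at an unadjusted p under 0.05, 0.409% as higher and 0.57% as lower. The number of members at an unadjusted p under 0.05 was 0 by edgeR and by DESeq2. Log2 changes ran from -0.34 (SE 0.26) for Cpsf2 to 0.17 (SE 0.18) for Cpsf4, with a median of -0.05, and the 95% intervals ran from 0.526-fold to 1.48-fold. With 2 libraries per group a change inside a member's own interval could not be told from none, and these bounds are not a limit of detection. Without replicate 1 of the control polysomal libraries, Cpsf2, Cpsf3 and Pcf11 had an unadjusted p under 0.05 (lowest adjusted p = 0.245, edgeR), beside 13.6% of all genes in that fit, and the median was -0.18. Without replicate 2 of the same group it was 0.07, and without replicate 1 of the control total RNA libraries it was 0.06. Without replicate 2 of the latter, Cpsf2 alone had an unadjusted p under 0.05, at a log2 change of -0.60, beside 0.717% of all genes.

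In control cells no member passed the test of polysomal against total RNA. The edgeR test called 0.174% of genes and 0 of 10 members. At an unadjusted p under 0.05, 4.45% of genes were higher and 6.25% lower on polysomes, and the 1 member was Nudt21, higher by a log2 of 0.26 ± 0.11 (SE; adjusted p = 0.465, edgeR). Both polysomal libraries of Nudt21, at 39.5 and 44.7 CPM, were above both total RNA libraries, at 31.7 and 38.2 CPM. Higher without overlap were 18.9% of genes. Cpsf1 and Cpsf4 were lower on polysomes without overlap, beside 20.1% of genes, with log2 ratios of -0.09 and -0.26. The median of the members was 0.15, against 0.01 over all genes. These values rested on the control libraries too. Without replicate 1 of the polysomal controls 8 members had an unadjusted p under 0.05, beside 32.2% of all genes, and Cpsf2 passed the adjusted test (log2 0.60, adjusted p = 0.033, edgeR, in a fit that called 2145 genes). Without replicate 2 of that group 0 members had an unadjusted p under 0.05 and the median was -0.01. Nudt21 also missed that unadjusted threshold when replicate 1 of the control total RNA or any 1 HuD library was left out, while without replicate 2 of the control total RNA 3 members passed it, beside 9.33% of all genes.

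The CRAC table placed HuD on 2 of the 10 mRNAs, Nudt21 and Papola, each at 1 window in the 3′ UTR, beside 9.9% of the 12953 protein coding genes with counts. The windows are shown because they are the sites listed on the members, with the authors' window in capitals and up to 11 flanking nt of the GENCODE vM21 transcript in lower case, 5′ to 3′, on GRCm38.
Nudt21, chr8:94019541-94019548, minus strand: aagaguaaaauGAAUAUGAccgagauagug
Papola, chr12:105838083-105838089, plus strand: acauacaaaaaCAUUUUAaaaaucauuuc
Papola's window holds a run of U after an A, while that of Nudt21 holds no UUU. Of the 2598 windows on protein coding genes, 3.81% lacked UUU, and of the 118 windows that were 8 nt long like that of Nudt21, 34 did.

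The Nudt21 window was covered by 28 reads of the pooled HuD libraries, 4 of them with a deletion at the site, and by 0 reads of the control libraries. It lay 138 nt after the last coding base of Nudt21-201 and 4045 nt before the end of that transcript. Its score against the authors' weight matrix was 0.74, and 0.847% of windows scored lower. Papola's window was covered by 19 reads, 4 of them with a deletion, and by 0 control reads, with a score of 0.88. The window was listed 2 times, and the other entry gave 17 reads. It lay 1226 nt after the last coding base of Papola-202 and 718 nt before the end of that transcript. Against a median of 26 reads and 5 deletions over all coding windows (quartiles 12 and 66 reads), both members were near the middle in coverage. The authors' unadjusted p-values of the windows were 0.191 and 0.221, so neither is under 0.05. Replicates were pooled, so these values have no replicate error, and the other 8 members being without a window says only that none passed the authors' filters.

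The listed 3′ ends of the members divide them into those with end reads mainly at 1 place and those with a second end inside the gene. An end is a known polyadenylation site at which reads of the 3′ end libraries started, and the list holds 14536 unique ends on 9621 genes, each with at least 2 reads in every library. For Cpsf2, Cpsf3 and Nudt21 no end was listed. The count table's model of Nudt21 stopped at position 94017770, while Nudt21-201 of vM21 runs on to 94015496, so its furthest annotated end lies outside that model. Cpsf1, Cpsf4 and Pcf11 had 1 end each once ends within 20 nt were merged. The last 30 nt before the ends that the counts turn on are shown as DNA, with AATAAA or ATTAAA in capitals.
Cpsf1, end at chromosome 15 position 76595809: gtataaaacacaaagaaaacgatttctttc
Cpsf4, end at chromosome 5 position 145182040: ctatgaggttgATTAAAaagcttgtttttt
Fip1l1, main end at chromosome 5 position 74598790: atcAATAAAaatgatcttgtgaaatattaa
Fip1l1, intron 3 end at position 74540566: agagctgttatacagagaaactctgtttcc
Cpsf6, distal end at chromosome 10 position 117349039: tagtgttgtAATAAActgtttatggggctg
Cpsf6, intron 10 end at position 117353805: tggAATAAAtggactaagaagtacttcacc
Cstf2, intron 11 end at chromosome X position 134075863: atatagAATAAAaatgtattttctgttgta
Cstf2, last exon end at position 134086819: ctgtcgtggattcAATAAAtattttaaaag
Pcf11, end at chromosome 7 position 92643712: catacatgtAATAAActgaatgatgaacaa
Papola, intron 9 end at chromosome 12 position 105809709: attacAATAAAattgattgtagacactgaa
Papola, distal end at position 105838944: aaaacacAATAAAaaaaaaaacagcacaaa
The letters AATAAA stood in 60.7% of the 14136 ends that could be read in a transcript, ATTAAA alone in 13.6% and neither in 25.7%, on the strand of the gene. The end of Cpsf1 and the intron 3 end of Fip1l1 hold neither in this window, and Cpsf4 holds ATTAAA only.

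Papola, the polymerase, divided its reads almost evenly between an end inside the gene and the distal one. The internal end lies in intron 9 of Papola-202, a transcript of 22 exons, and the longest protein annotated to end there has 293 amino acids against 739 for the full length enzyme. It took 462, 491 and 568 reads in the control libraries and 423, 564 and 458 reads with HuD. Where ends lie within 20 nt of each other their counts can share reads, so the end with the highest count stood for the 2 distal ones. As a share of the gene's end reads taken this way, the internal end held 40.7%, 46.6% and 45.1% in control and 45.1%, 49.5% and 44.6% with HuD, or 44.1% ± 3.09 and 46.4% ± 2.67 (SD, n = 3). The groups overlapped, and the edgeR test of end choice gave a gene-level p of 0.787 and an adjusted p of 1.0. Papola's CRAC window lies 28374 nt beyond the internal end and 855 nt before the furthest one, so that it is part of the long transcripts and not of the short ones.

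**Figure D3:**
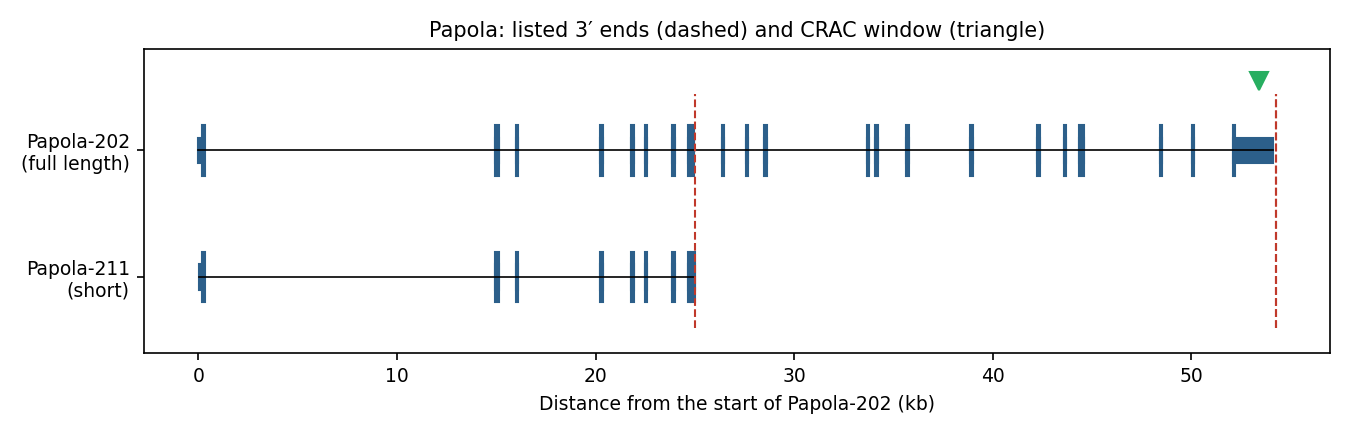
Exons of the full length transcript Papola-202 and of a transcript that ends in intron 9, Papola-211 (blocks, taller where coding), on an axis of kb from the start of Papola-202. Dashed lines mark the listed 3′ ends, of which the 2 distal ones, 132 and 137 nt beyond the end of Papola-202, merge at this scale, and the triangle marks the CRAC window in the last exon.

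Cstf2 had more end reads inside the gene than at its last exon. Such reads count the transcripts present and not the cuts made, and whether the short and long forms differ in stability was not tested. The end in intron 11 of Cstf2-201, whose annotated protein has 510 amino acids against 580, took 194, 160 and 182 reads in control and 173, 232 and 126 reads with HuD, while the last exon end took 103, 48 and 67 against 72, 48 and 78. The intronic share was 71.8% ± 5.91 in control and 71.7% ± 10.6 with HuD (SD, n = 3), and the HuD libraries ran from 61.8% to 82.9%, on both sides of the controls. The gene-level p of end choice was 0.902 (adjusted p = 1.0, edgeR).

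Cpsf6 gave the smallest p for end choice among the members, without passing. Its intron 10 end, of a transcript with a protein of 551 amino acids, took 35, 17 and 41 reads in control and 21, 17 and 26 reads with HuD. The distal listed end lay outside the reference transcript of the gene. It belongs to a transcript with a protein of 552 amino acids and took 143, 92 and 101 against 124, 132 and 115 reads. The intronic share was 19.7%, 15.6% and 28.9% in control and 14.5%, 11.4% and 18.4% with HuD, so that it was lower in each HuD library than in the control library of the same number while the groups overlapped. Its use relative to the gene changed by a log2 of -0.38, with a gene-level p of 0.234 (adjusted p = 1.0, edgeR), and with the replicate block p was 0.111 and adjusted p 1.0. The furthest annotated end of Cpsf6 lies 4366 nt beyond the nearest listed one and was not among the listed ends.

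Most end reads of Fip1l1 lay at its distal end. Merged with a neighbour 10 nt on, that end held 96.2% ± 0.917 of reads in control and 95.2% ± 1.1 with HuD (SD, n = 3). An end earlier in the last exon, at 74596145, held 2.13% and 2.66%, and the intron 3 end 1.62% and 2.19%. In control cells the intron 3 end rested on 34, 8 and 34 reads and with HuD on 32, 16 and 34 reads, so its share was set by few reads. End choice had a p of 0.555 for the gene (adjusted p = 1.0, edgeR). Over all 3317 genes with several ends the test called 0.0301% at an adjusted p of 0.05 and 0.181% at an unadjusted p under 0.05, and of the 5 members tested it called 0 by both measures. That test took ends within 20 nt as separate, so Cpsf4, whose ends merge to 1, had no second place to choose. With such ends merged, 1434 genes and 4 members were tested, and 0.0% and 0.558% of genes and 0 members were called (edgeR). With the replicate block on unmerged ends, 1.03% of genes and 0 members had an unadjusted p under 0.05 (edgeR).

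**Figure D4:**
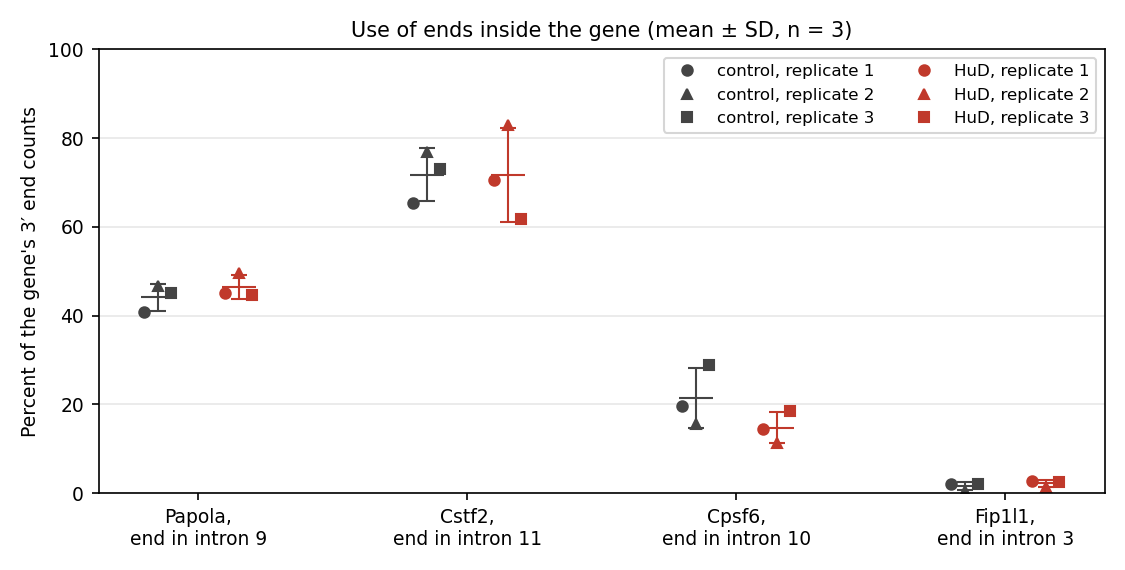
Share of a gene's 3′ end counts at its intronic end (y axis, percent, 0 to 100) for Papola, Cstf2, Cpsf6 and Fip1l1 in each of the 3 control (grey) and 3 HuD (red) libraries, with mean ± SD. The groups overlap at all 4 ends, and the internal end holds the larger share of reads for Cstf2 but not for the other 3 genes.

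Summed over its ends, no member passed the test of a change with HuD at an adjusted p of 0.05, where the edgeR test called 0.052% of 9621 genes, nor at an unadjusted p under 0.05, which 2.87% of genes passed as higher and 3.0% as lower; DESeq2 also found 0 of the 7 members by either measure. Fip1l1 was the 1 member whose groups did not overlap, at 106, 104 and 103 end CPM in control and 93.4, 86.9 and 93.4 with HuD, beside 5.81% of genes that were lower and 6.23% that were higher without overlap. Its log2 change was -0.20 ± 0.11 (SE; 95% interval -0.45 to 0.05), with an adjusted p of 0.914 by edgeR. With the replicate block its unadjusted p was 0.0333 and its adjusted p 0.22 by edgeR, in a fit that called 217 genes (2.26%) and had 18.7% of genes at an unadjusted p under 0.05. Cpsf1 read 167, 201 and 139 end CPM in control and 124, 177 and 153 with HuD, with overlap. Cpsf4, whose 2 ends lie 1 nt apart and count nearly the same reads, read 72.5, 68.1 and 66.6 end CPM in control and 64.8, 77.3 and 73.6 with HuD. Most of its reads enter these sums more than once, and with the ends merged its control mean was 35.4 end CPM. The groups of Cpsf4 overlapped too, as did those of Papola at 76.9, 80.6 and 85.0 against 73.7, 82.9 and 72.2 end CPM. Pcf11 had the least reads, 61, 25 and 44 in control and 69, 33 and 53 with HuD, and the least precise change, 0.35 ± 0.36 (SE; 95% interval -0.46 to 1.17). It was higher in each HuD library than in the control library of the same number, with overlap of the groups. The 7 log2 changes had a median of 0.04, against 0.0002 over all genes (-0.061 to 0.096 with 1 library left out in turn, when the change of Pcf11 ran from 0.03 to 0.65), and their intervals ran from 0.678-fold to 2.25-fold.

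The listed ends captured the members unequally for their level. With ends within 20 nt merged, so that no read counted more than once, the end CPM of control cells divided by the FPKM of control total RNA was 8.7 for Fip1l1, 7.44 for Cpsf1, 2.95 for Papola and 1.96 for Cpsf4, and 0.972 for Cstf2, 0.614 for Cpsf6 and 0.457 for Pcf11. Over 9124 protein coding genes the median was 1.93 and the quartiles were 0.868 and 4.16, so 2 members lay above the upper quartile and 2 below the lower. The ratio depends on the length used for FPKM: Fip1l1, with the longest of the members at 13122 nt, takes a lower FPKM and so a higher ratio. Cpsf6 was 1 of these 2, and its furthest annotated end was not listed. The end of Pcf11 lies 169 nt before the end annotated in vM21.

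**Figure D5:**
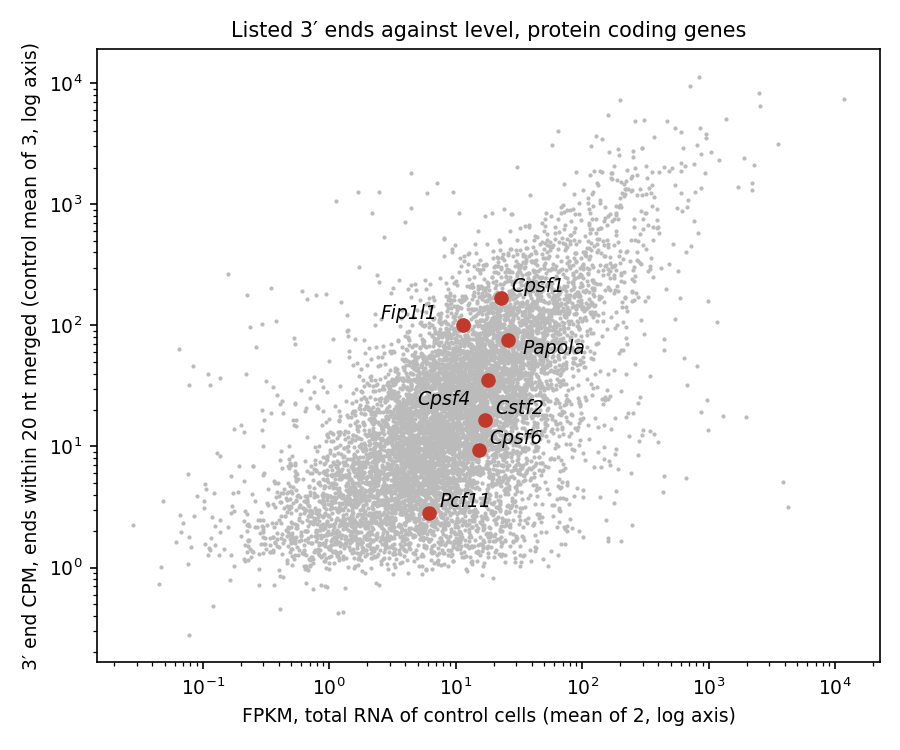
Summed 3′ end CPM after merging ends within 20 nt (y axis, mean of 3 control libraries) against FPKM in total RNA (x axis, mean of 2 control libraries), both on log axes, for the genes with both values (grey) and the 7 members with a listed end (red). At FPKM values between 6.17 and 25.8 the members run from 2.82 end CPM for Pcf11 to 169 for Cpsf1.

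Of 17 further genes of 3′ end processing, 16 had counts, Papolb being the one not listed, and 12 had a listed end. With HuD, 0 of 16 passed an adjusted p of 0.05 in total RNA, in polysomal RNA or in the ratio, and 0 of 12 did in 3′ end counts (edgeR). At an unadjusted p under 0.05 there was 1 gene in polysomal RNA, Clp1, the RNA kinase of CFIIm and partner of Pcf11, with a log2 change of -0.34 ± 0.10 (SE; adjusted p = 0.969, edgeR). In control cells 1 gene was higher on polysomes at that threshold, Ppp1cb, a catalytic subunit of protein phosphatase 1, by a log2 of 0.30 ± 0.12 (SE; adjusted p = 0.462, edgeR). Ppp1cb also held the most HuD signal of the list, with 9 windows that summed to 515 reads and 62 deletions, 8 of them in the 3′ UTR and 1 in the coding sequence. Cpsf7, the paralogue of Cpsf6 in CFIm, held 1 window of 12 reads in its 3′ UTR, and Ssu72, a phosphatase of the polymerase tail, 1 window of 7 reads in its coding sequence. None of these 3 genes had an adjusted p under 0.05 for any change with HuD (edgeR).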

How the data were processed

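The authors deposited raw gene counts for total and polysomal RNA, made with STAR 2.5.3a on GRCm38.p4 with Gencode M6. The deposited 3′ end counts (QuantSeq REV) are reads starting within 10 nt of an annotated polyadenylation site, repeated for each transcript that shares it. In CRAC the authors aligned reads with TopHat2 2.0.14, pooled replicates, penalised control signal and deposited the coverage, a signal in reads, the count of reads with a deletion, an unadjusted combined p-value and a weight matrix score; listed windows had at least 6 covering reads and 3 deletions.

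Counts were tested with edgeR 4.0.16 in R 4.3.3 (TMM, filterByExpr, quasi-likelihood test, Benjamini-Hochberg adjustment over all features, threshold 0.05), 1 fit over the 8 RNA-Seq and POL-Seq libraries and another over the 6 end libraries. Intervals are 95% and come from the same fit. End choice used diffSpliceDGE with Simes' p per gene, on unique ends, while shares and end-to-level ratios keep, of ends within 20 nt, the highest count. CPM and FPKM were computed from TMM library sizes. DESeq2 1.42.0, other scaling, no filter, a replicate block and fits without each library were alternatives. Tables and figures were made in Python 3.11.15 with pandas 2.3.3 and matplotlib 3.10.9. On simulated counts all 6 tests called 100% of 200 genes or sites changed 4-fold. The changed genes had high counts, and the simulated spread was small, equal for all genes and without replicate effects. The simulation therefore does not show that changes as small as those of the members would be called. CRAC windows did not hold their listed sequence as written, so positions were matched to vM21 transcripts. Transcript names, lengths and sequences come from GENCODE vM21 on GRCm38.

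Numbers in the labels were taken to pair the 3′ end libraries, since libraries with the same number deviated together in all 3 pairs (r 0.427, 0.697 and 0.551). Between control and HuD libraries of unlike number r ran from -0.649 to 0.364, the latter for control 3 and HuD 1. The 2 pairs of RNA-Seq and POL-Seq were not taken as such. The main fits, also those of the 3′ ends, held no block and so left this pairing out. For the ends, only the values given with the replicate block use it. P-values set group differences against the spread between these libraries, and do not cover the spread between independently made lines. Exons of any 1 other gene overlap at most 4.35% of a member's exon length, and some members overlap more than 1 gene. All 10 members are described, the further genes are named where they pass a threshold or hold a window, and members, lists and tests were chosen with earlier results of these data known.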

Additional observations from a re-analysis of the deposited data

How the results depend on the processing

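No member passed an adjusted p of 0.05 in any HuD comparison under any alternative tried (edgeR or DESeq2). Under DESeq2, other size factors, no filter, merged ends, fits to 1 fraction and the replicate block, every member's log2 change kept its direction. For the members the replicate block moved only the number of members at an unadjusted p under 0.05: to 1 in polysomal RNA (Cpsf2; 9.3% of all genes), to 3 for the polysome-to-total ratio of control cells (Nudt21, Cpsf2 and Papola; main value 1; 20.6% of all genes) and to 1 in 3′ end counts (Fip1l1; 18.7% of all genes), also 1 with ends merged and the block, a combination chosen after seeing the data. It changed no other call of a member. Beyond the members it moved the genes called in 3′ end counts from 5 to 217, Elavl4 among them, and gave an unadjusted p under 0.05 to Clp1 in total RNA (0.0346) and Pabpn1 in the control ratio (0.00907). The paired numbers of RNA-Seq and POL-Seq are a hint from the data only, with r of 0.255 to 0.541. For the control ratio DESeq2 gave 2 members at an unadjusted p under 0.05. Of the 2 CRAC windows, 0 had an authors' p-value under 0.05. 

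Leaving out 1 library in turn moved the members' median log2 change from -0.094 to 0.15 in total RNA, from -0.23 to 0.086 in polysomal RNA, from -0.18 to 0.073 for the change in ratio and from -0.0051 to 0.28 for the control ratio; the number of members at an unadjusted p under 0.05 ran from 0 to 6 in polysomal RNA, 0 to 3 for the change in ratio and 0 to 8 for the control ratio, where 0 to 1 passed the adjusted test. Log2 changes whose direction or call depended on 1 library are given as their lowest and highest value. In total RNA they ran from -0.018 to 0.13 for Cpsf1, -0.15 to 0.31 for Cpsf2, -0.034 to 0.16 for Cpsf3, -0.19 to 0.077 for Cpsf4, -0.021 to 0.23 for Cpsf6, -0.14 to 0.094 for Cstf2, -0.15 to 0.0068 for Fip1l1, -0.071 to 0.20 for Nudt21 and -0.21 to 0.0013 for Papola. In polysomal RNA they ran from -0.53 to 0.0015 for Cpsf2, -0.27 to 0.12 for Cpsf3, -0.012 to 0.24 for Cpsf4, -0.25 to 0.10 for Cstf2, -0.25 to 0.0055 for Fip1l1, -0.022 to 0.16 for Nudt21, -0.29 to 0.021 for Papola and -0.22 to 0.0695 for Pcf11. For the change in ratio they ran from -0.034 to 0.12 for Cpsf1, -0.33 to 0.053 for Cpsf3, -0.035 to 0.22 for Cpsf6, -0.22 to 0.13 for Cstf2, -0.18 to 0.076 for Fip1l1, -0.13 to 0.14 for Nudt21 and -0.18 to 0.12 for Papola. For the control ratio they ran from 0.067 to 0.61 for Cpsf2, -0.19 to 0.20 for Cpsf3, -0.0028 to 0.35 for Cstf2, -0.0075 to 0.30 for Papola and -0.029 to 0.26 for Pcf11. In 3′ end counts they ran from -0.0008 to 0.26 for Cpsf6 and -0.061 to 0.18 for Cstf2, and in end use from -0.066 to 0.076 for Cstf2 end at 134075863, -0.22 to 0.14 for Cstf2 end at 134086819 and -0.12 to 0.019 for Papola end at 105838939. The cause was not tested. With 2 libraries per group, a change inside a member's interval could not be told from none, but the intervals are not limits of detection. In total RNA even the log2 change of 1.35 for Elavl4 missed the adjusted threshold (adjusted p = 0.0866, edgeR). Ends with few reads, such as those of Pcf11, limit the 3′ end tests.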
